A study of Mus musculus with 8 samples.

Results

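The 6 genes described here encode proteins of the cytoplasmic side of the dystrophin complex and a membrane channel that is held there. They are the β-syntrophins Sntb1 and Sntb2, the dystrobrevins Dtna and Dtnb, the neuronal nitric oxide synthase gene Nos1 and the water channel gene Aqp4. They were chosen by symbol, for what their products are known to do, and are 6 of the 55401 genes in the deposited table. RNA sequencing was performed on whole tibialis anterior (TA) muscles, a fast muscle of the lower leg, from 6-month-old male mice. The 4 WT muscles came from mice of the C57/Bl6 strain, and the 4 mdx5cv muscles came from a mouse model of Duchenne muscular dystrophy (DMD) on the same B6 background. The mdx5cv allele is a germline point mutation of the dystrophin gene Dmd, carried by every cell of the animal and not by myofibers alone. The question is how the messages of proteins that bind to dystrophin, directly or through a partner, differ in muscle that carries this mutation.

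Dystrophin links the actin cytoskeleton of the myofiber to a group of membrane proteins, the dystroglycans and sarcoglycans. At its cytoplasmic end it binds dystrobrevins and syntrophins, and the syntrophins are adaptors whose PDZ domains hold signalling enzymes and channels at the sarcolemma. The muscle form of nNOS and aquaporin 4 are among the proteins held in this way, and both are known to leave the sarcolemma when dystrophin is missing. RNA levels, which are what was measured here, say nothing of where a protein is.

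The libraries held between 13175524 and 14921057 reads assigned to genes, and the range of the WT libraries overlapped that of the mdx5cv libraries. Values are normalized counts, which are reads of a gene scaled by the size factor of its library. The size factors were 0.873 to 0.944 in WT and 1.06 to 1.25 in mdx5cv. They did not overlap, so the scaling differs between the groups although the totals do not. Differences between groups are log2 fold changes of mdx5cv over WT on the log2(normalized count + 1) scale. Genes were called changed at an adjusted p under 0.05 in limma with Benjamini-Hochberg adjustment. The 13677 genes whose normalized count averaged 10 or more entered that test. Dmd, the gene that carries the mutation, had normalized counts of 6914, 8155, 6579 and 6169 in WT replicates 1 to 4 and of 4400, 4056, 3941 and 3461 in mdx5cv replicates 1 to 4. No mdx5cv muscle reached the lowest WT muscle, and its log2 fold change was -0.81 ± 0.12 (SE, n = 4 per group; limma, adjusted p = 0.000177). The mutation leaves most of the exon sequence in the message, so the count of Dmd over the whole gene is a level and does not read the genotype itself. The markers of fast fibers were abundant in every muscle, with summed normalized counts of 895007 to 1122670 in WT and 694989 to 1065010 in mdx5cv, so the defining markers of a fast muscle were present.

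All 6 genes were high enough to be tested. 4 of them changed: Sntb1 and Sntb2 were higher and Nos1 and Aqp4 were lower in mdx5cv muscle, and Dtna and Dtnb did not pass the test. In this comparison 40.9% of all genes tested were called, 20.9% as higher and 20.1% as lower, so the 4 of 6 stand in a comparison where a large part of the transcriptome moved. These were 2854 genes higher and 2743 lower. When the libraries were scaled to equal totals instead, the median over all genes was 0.36 and the split was 5444 higher and 820 lower. When a log2 fold change of 1 or more in size was also required, 2 of the 6 genes (Sntb1 and Aqp4) were called, against 13.6% of all genes tested. The 4 WT and 4 mdx5cv values did not overlap for the 4 genes that were called, and 40.1% of all genes tested had groups that did not overlap. The median log2 fold change was 0.00009 over the 6 genes and 0.0035 over all genes.

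**Figure D1:**
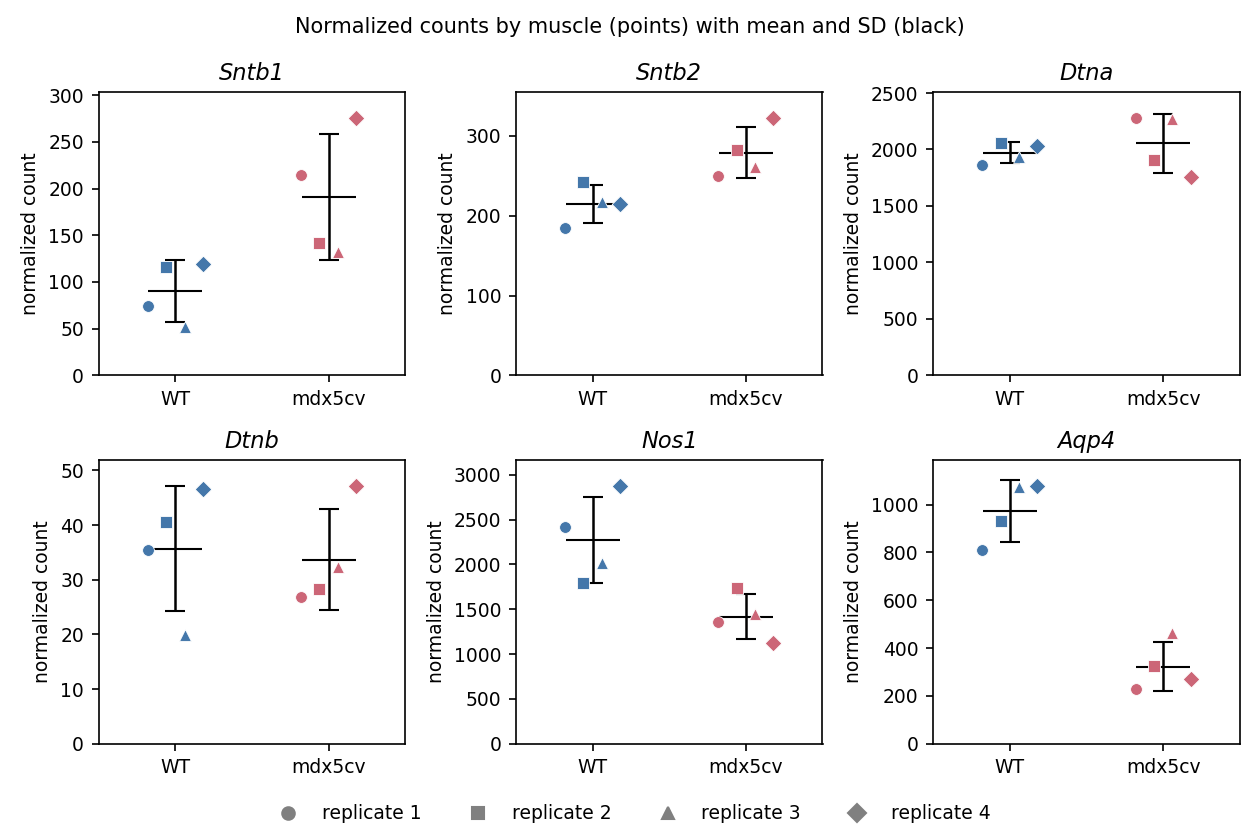
Normalized counts (vertical axes, linear from 0) of the 6 genes in each muscle, with a marker shape for each replicate number, and the mean and SD of each group in black (n = 4). The groups are apart for Sntb1, Sntb2, Nos1 and Aqp4, with Aqp4 at 810 to 1077 in WT and 230 to 463 in mdx5cv, and they overlap for Dtna and Dtnb.

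The β-syntrophins were the members that rose. Sntb1 encodes β1-syntrophin, which is found at the sarcolemma of part of the fibers and in many other tissues (ENSMUSG00000060429.12, minus strand of chr15:55636388-55906949, mm10). Its normalized counts were 74.5, 116, 52.0 and 120 in the WT muscles and 214, 142, 132 and 276 in the mdx5cv muscles. The lowest mdx5cv muscle was above the highest WT muscle, though by little, and mdx5cv replicates 1 and 4 stood well above replicates 2 and 3. The group means were 90.6 ± 33.0 and 191 ± 67.3 (SD, n = 4), a log2 fold change of 1.08 ± 0.28 (SE) or a fold of 2.11 with a 95% confidence interval of 1.39 to 3.21 (limma, adjusted p = 0.00762). Sntb1 rested on 47 to 345 reads per library, the fewest of the 4 genes that were called. In whole muscle, more cells of a type that makes a message and more of that message per cell cannot be told apart, and the same is true of a fall.

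Sntb2 encodes β2-syntrophin, which is concentrated at the neuromuscular junction (ENSMUSG00000041308.6, plus strand of chr8:106935750-107019714). The normalized counts were 185, 242, 217 and 215 in WT and 250.1, 283, 261 and 323 in mdx5cv. Every mdx5cv muscle was above every WT muscle, and the gap between WT replicate 2 and mdx5cv replicate 1 was narrow. The means of 215 ± 23.7 and 279 ± 32.1 (SD, n = 4) gave a log2 fold change of 0.38 ± 0.12 (SE), a fold of 1.30 with an interval of 1.08 to 1.56 (limma, adjusted p = 0.0267). This call was the least firm of the 4. It was lost when WT replicate 1, WT replicate 3, mdx5cv replicate 2 or mdx5cv replicate 4 was left out (limma, adjusted p = 0.0863, 0.0544, 0.0563 and 0.0719), with a log2 fold change of 0.31 to 0.38 in those fits.

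Whether the 2 β-syntrophins rose by different amounts was not settled by these muscles. The log2 ratio of Sntb2 to Sntb1 within a muscle, which does not depend on how libraries are scaled, was 1.30, 1.05, 2.04 and 0.84 in WT and 0.22, 0.99, 0.97 and 0.23 in mdx5cv. The groups overlapped, and the mean ratio went from 1.31 ± 0.52 to 0.61 ± 0.44 (SD, n = 4), a difference of -0.70 (two-sided exact permutation test, p = 0.114, adjusted over 3 ratios p = 0.171). The smallest p that 4 against 4 muscles can give is 0.0286.

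The dystrobrevins did not pass the test. Dtna encodes α-dystrobrevin, the main dystrobrevin of skeletal muscle, which binds dystrophin and syntrophins (ENSMUSG00000024302.16, plus strand of chr18:23415135-23659715). Its normalized counts were 1863, 2061, 1933 and 2030 in WT and 2281, 1907, 2266 and 1760 in mdx5cv. The mdx5cv values lay on both sides of the WT values, with a wider spread. The means of 1972 ± 90.5 and 2053 ± 261 (SD, n = 4) gave a log2 fold change of 0.05 ± 0.11 (SE) with a 95% interval of -0.18 to 0.28 (limma, adjusted p = 0.736). It shares 90 exonic bases with Gm47898 on the other strand, which had at most 54 reads in a library.

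Dtna stood in a higher proportion to Dmd in mdx5cv muscle. The log2 ratio of Dtna to Dmd counts was -1.89, -1.98, -1.77 and -1.60 in WT and -0.95, -1.09, -0.80 and -0.98 in mdx5cv. Every mdx5cv muscle had a higher ratio than every WT muscle, and the mean ratio went from -1.81 ± 0.16 to -0.95 ± 0.12 (SD, n = 4), a difference of 0.86. That difference follows from the lower Dmd count, since the log2 fold change was -0.81 for Dmd and 0.05 for Dtna. It is not particular to Dtna, as a gene without change would have a similar one. The log2 ratio of Nos1 to Dmd averaged -1.63 ± 0.45 over the WT and -1.50 ± 0.21 over the mdx5cv muscles (SD, n = 4), and there the groups overlapped. These ratios are a description and were not tested.

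Dtnb encodes β-dystrobrevin, which is known mainly from tissues other than muscle, such as brain and kidney (ENSMUSG00000071454.13, plus strand of chr12:3572381-3781796). Its normalized counts were low, at 35.5, 40.6, 19.9 and 46.6 in WT and 26.9, 28.3, 32.4 and 47.1 in mdx5cv, from 18 to 59 reads per library. The groups overlapped over nearly their whole range. The log2 fold change was -0.05 ± 0.28 (SE, n = 4 per group) with an interval of -0.65 to 0.54 (limma, adjusted p = 0.901). The log2 ratio of Dtnb to Dtna averaged -5.81 ± 0.49 over the WT and -5.91 ± 0.50 over the mdx5cv muscles (SD, n = 4), a difference of -0.10 (two-sided exact permutation test, p = 0.8).

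Nos1 encodes neuronal nitric oxide synthase, which in muscle makes nitric oxide at the membrane of mostly fast fibers and acts on blood flow during contraction (ENSMUSG00000029361.18, plus strand of chr5:117781032-117958840). The normalized counts were 2417, 1792, 2010 and 2874 in WT and 1360, 1737, 1443 and 1128 in mdx5cv. The highest mdx5cv muscle, replicate 2, came close to the lowest WT muscle, which has the same number, and WT replicate 4 and mdx5cv replicate 4 were at the ends of the range. The means were 2273 ± 477 and 1417 ± 251 (SD, n = 4), a log2 fold change of -0.68 ± 0.16 (SE), a fold of 0.626 (limma, adjusted p = 0.00418). Nos1 shares 268 exonic bases with Gm26995 on the other strand, a gene listed with 0 reads in every library. With every library scaled to the same total, the log2 fold change was -0.32 and was no longer called (limma, adjusted p = 0.102).

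Aqp4 encodes aquaporin 4, the water channel of the sarcolemma of fast fibers (ENSMUSG00000024411.11, minus strand of chr18:15389496-15410982). It had the largest fitted change of the 6 genes, and of the 8 fast fiber markers 3 fell, with a median log2 fold change of -0.13. Its normalized counts were 810, 930, 1074 and 1077 in WT and 230, 325, 463 and 269 in mdx5cv. The groups were far apart, and the gap between them was wider than the range within either group. The means of 973 ± 128 and 322 ± 102 (SD, n = 4) gave a log2 fold change of -1.63 ± 0.18 (SE), or 3.10-fold lower (limma, adjusted p = 2.15e-05). The call held in all 20 alternative fits, with log2 fold changes of -1.83 to -1.28. The log2 ratio of Aqp4 to Dmd averaged -2.84 ± 0.32 over the WT and -3.66 ± 0.48 over the mdx5cv muscles (SD, n = 4), a difference of -0.83 that was not tested, and the groups overlapped.

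Levels of genes of different length can be compared only per kilobase. Per kilobase of exon, the order of the 6 genes in WT muscle was Nos1 at 204, Aqp4 at 156, Dtna at 116, Sntb2 at 20.7, Sntb1 at 17.0 and Dtnb at 3.71 normalized counts. Nos1 and Aqp4 overlapped over the 4 WT muscles, as did Sntb2 and Sntb1, and the other neighbours did not. In mdx5cv muscle the order was Nos1 at 127, Dtna at 121, Aqp4 at 51.6, Sntb1 at 35.9, Sntb2 at 27.0 and Dtnb at 3.51. Nos1 and Dtna overlapped there, and so did Aqp4 and Sntb1, and Sntb1 and Sntb2. The order of the first 3 genes depends on the length used: per kilobase of the longest transcript Dtna was first in both groups, at 313 and 326. The order of the β-syntrophins in mdx5cv muscle depends on it too: per kilobase of coding sequence Sntb2, at 175, was above Sntb1, at 118. With each length, the means of Nos1, Dtna and Aqp4 were above those of the β-syntrophins in both groups, and Dtnb was last.

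**Figure D2:**
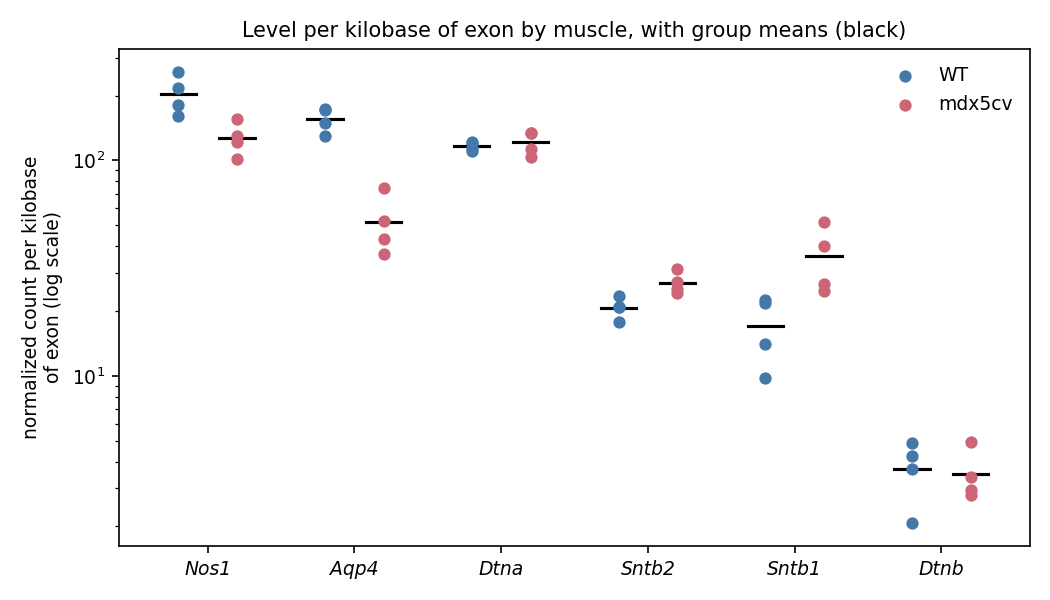
Normalized count per kilobase of exon (vertical axis, log scale) of the 6 genes in each of the 4 WT (blue) and 4 mdx5cv (red) muscles, with group means as black lines. Nos1, Aqp4 and Dtna are the highest, Aqp4 drops from a mean of 156 to 51.6, Sntb1 goes from a mean of 17.0 to 35.9 and Sntb2 from 20.7 to 27.0 (the order of these 2 in mdx5cv is the other way round per kilobase of coding sequence), and Dtnb is lowest in both groups.

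The other genes of the complex and of its pathways were taken from lists. Of the 9 core complex genes that were tested, none was called higher, 2 were called lower (Dmd and Sgcd) and 7 did not pass the test. The median log2 fold change was -0.17. Sgcd, the δ-sarcoglycan gene, had normalized counts of 884.5 to 1083 in WT and 524 to 695 in mdx5cv and a log2 fold change of -0.67 (limma, adjusted p = 0.000433). The other core genes, among them Utrn, Dag1 and the remaining sarcoglycans, are shown beside the 6 genes in the plot of fold changes by pathway. Utrn and Dag1 had log2 fold changes of 0.26 and 0.22 and were not called (limma, adjusted p = 0.0668 and 0.0955). The groups did not overlap for Utrn, at 1182 to 1445 in WT and 1478 to 1816 in mdx5cv, and overlapped for Dag1.

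Of 16 genes for partners of syntrophins and dystrobrevins, 3 rose, 5 fell and 8 did not pass the test, with a median of -0.09. Pgm5, which encodes aciculin, a protein of adhesion sites that binds dystrophin and utrophin, was at 243 to 341 normalized counts in WT and 400.0 to 600.1 in mdx5cv (log2 fold change 0.83; limma, adjusted p = 0.000577). Sync, the gene of the intermediate filament protein syncoilin, which binds α-dystrobrevin, was at 211 to 453 in WT and 538 to 642 in mdx5cv (log2 fold change 0.79; limma, adjusted p = 0.00535). Prkar1a, a regulatory subunit of protein kinase A, had a log2 fold change of 0.48 and Kcnj12, an inward rectifier potassium channel, one of -0.56 (limma, adjusted p = 0.00207 and 0.0129). The groups of these 4 genes did not overlap. With equal totals, Kcnj12 was at -0.20 and was not called (limma, adjusted p = 0.376).

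Of 12 tested genes of nitric oxide signalling other than Nos1, 1 rose, 3 fell and 8 did not pass the test, with a median of -0.21. Gucy1a1, a subunit of the soluble guanylyl cyclase that nitric oxide activates, was at 202 to 279.7 normalized counts in WT and 119.8 to 139 in mdx5cv (log2 fold change -0.81; limma, adjusted p = 0.000367). Prkg1, the kinase that cyclic GMP activates, was at 665 to 1015 and 268 to 556 (log2 fold change -1.15; limma, adjusted p = 0.00069). Prkg1 and Gucy1a1 are also known from smooth muscle, and of the 6 markers of smooth muscle and pericytes 1 rose and 3 fell. Des, which myofibers also express, was left out after the values were seen. Without Des, the summed normalized count of these markers was 5969 to 7252 in WT and 3922 to 4594 in mdx5cv, so the groups did not overlap. Rgs5 made up most of that sum, with means of 4696 in WT and 2565 in mdx5cv. Myh11 and Tagln were also called lower, at log2 fold changes of -0.87 and -0.96. Acta2 was called higher, at 0.78, and Notch3 was not called, at -0.07. The part of smooth muscle in the changes of Prkg1 and Gucy1a1 was not tested. The nitric oxide signalling gene that rose was Dynll1, the dynein light chain that binds nNOS. It was at 109 to 136 in WT and 146 to 376 in mdx5cv (log2 fold change 0.87, limma, adjusted p = 0.00769). Of the other synthase genes, Nos3 of endothelium had a log2 fold change of -0.57 (limma, adjusted p = 0.0119). Nos2, the inducible form, was at -0.25 and was not called.

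Of 10 genes for other water channels and partners of aquaporin 4, 5 were high enough to be tested, of which 3 fell and 2 did not pass the test, with a median of -0.89. Aqp1, the water channel of endothelium, was at 2501 to 3257 normalized counts in WT and 965 to 1640 in mdx5cv (log2 fold change -1.12; limma, adjusted p = 0.000126). Slc4a4, a sodium bicarbonate cotransporter, was at 524 to 633 and 233 to 324 (log2 fold change -1.10; limma, adjusted p = 2.06e-05). Aqp7, a channel for water and glycerol, was at 101 to 174 and 52.8 to 106, where the groups overlap (log2 fold change -0.89; limma, adjusted p = 0.00677). With equal totals it was at -0.53 and was not called (limma, adjusted p = 0.0619). Whether Aqp4 fell further than Aqp1 was not settled: the log2 ratio of Aqp1 to Aqp4 averaged 1.51 ± 0.22 over the WT and 2.02 ± 0.32 over the mdx5cv muscles (SD, n = 4), the groups overlapped, and the difference of 0.51 had p = 0.0571, adjusted p = 0.171 (two-sided exact permutation test).

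**Figure D3:**
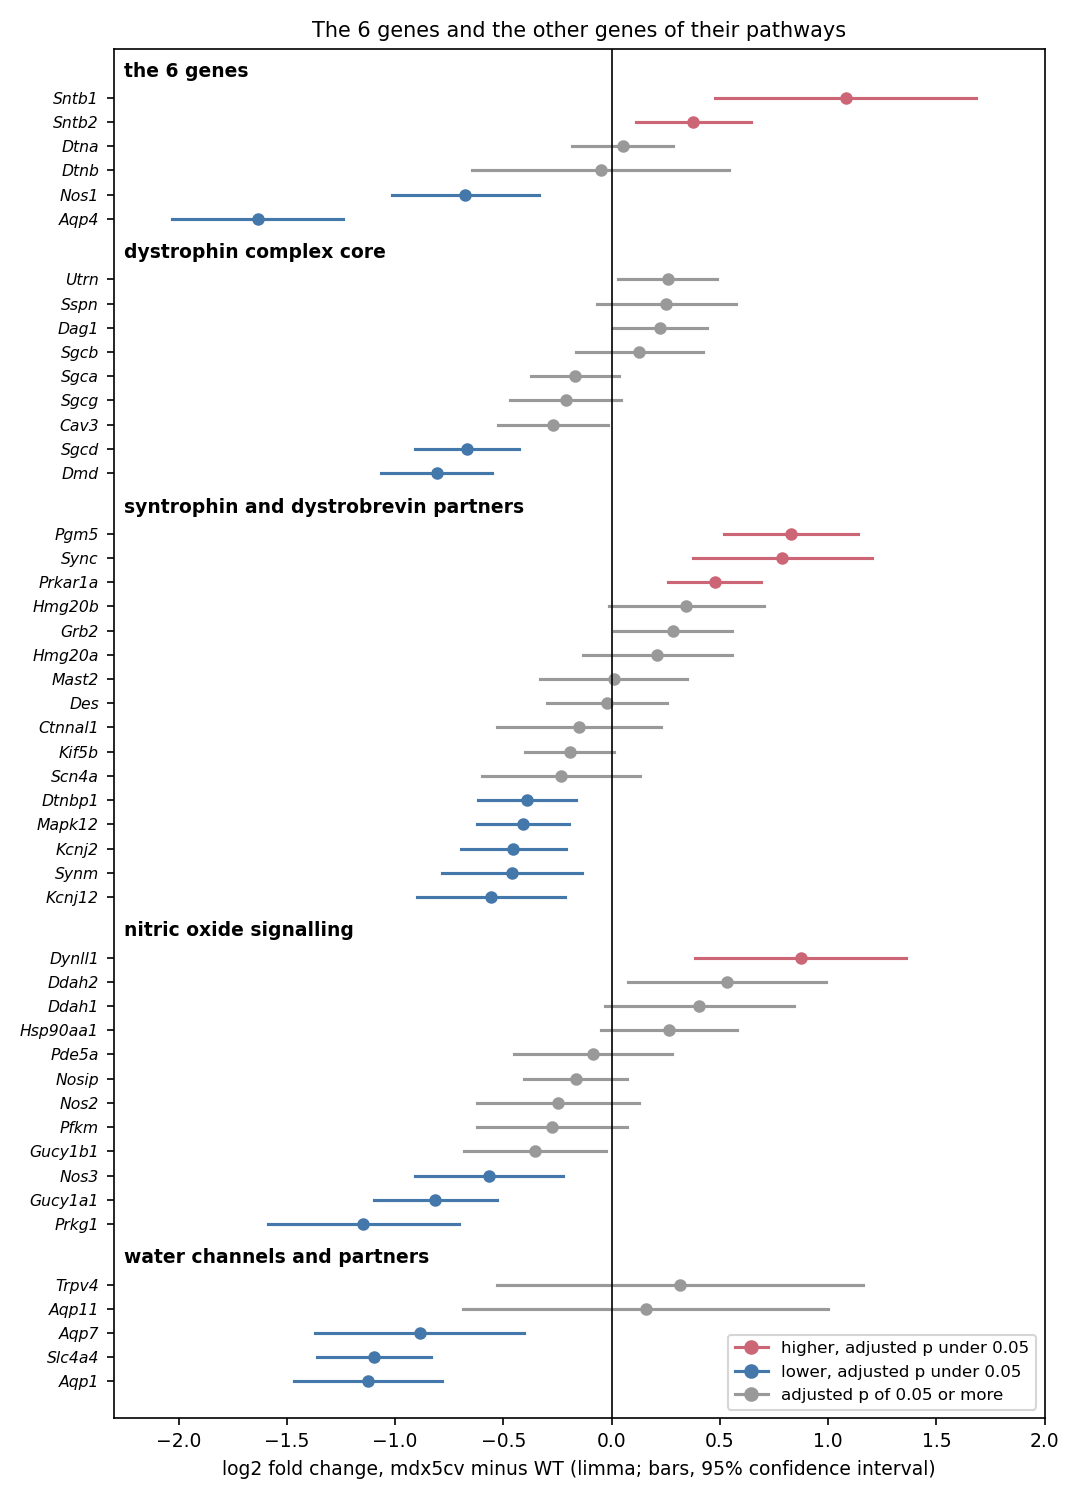
Log2 fold change of mdx5cv over WT (horizontal axis, limma) with its 95% confidence interval for the 6 genes and for the tested genes of 4 pathway lists, red where higher and blue where lower at an adjusted p under 0.05 and grey otherwise. Of the 6 genes, Sntb1 (1.08) and Sntb2 (0.38) are to the right of 0 and Nos1 (-0.68) and Aqp4 (-1.63) to the left, and of the 5 tested genes in the water channel list 3 are to the left.

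Markers of several cell types moved with the groups. All 6 markers of regenerating fibers rose, with a summed normalized count of 118 to 143 in WT and 2175 to 8502 in mdx5cv. Of 8 macrophage markers 7 rose and 1 fell (sums 551 to 846 and 3618 to 8625), and of 6 fibroblast markers 5 rose (5365 to 8125 and 17679 to 31691). Of 8 denervation and junction markers 5 rose (739 to 863 and 1972 to 4232), and 4 of 7 slow fiber markers rose and 1 fell (747 to 834 and 1202 to 2597). Chrna1, Chrnd, Chrng, Ncam1 and Runx1 rose, and Chrne, Musk and Rapsn were not called. Chrng was also in the regenerating fiber list. Tnnt1, Tnni1, Tnnc1 and Atp2a2 were the slow fiber markers that rose, Myl3 fell, and Myh7 and Myl2 were not called. Atp2a2 made up most of the slow fiber sum in mdx5cv, with means of 295 in WT and 967 in mdx5cv. All 6 endothelial markers fell (2562 to 3117 and 1579 to 2015), as did 3 of 8 fast fiber markers and 3 of 5 tested Schwann cell and nerve markers (451 to 845 and 283 to 446). With equal totals, only 2 endothelial markers and 1 Schwann cell and nerve marker were called, and with no filter on low values only 1 fast fiber marker was. The smooth muscle markers with Des summed to 31442 to 35055 in WT and 29605 to 32371 in mdx5cv, where Des makes up most of the sum, and the 1 lymphocyte marker that could be tested rose. The part of these shifts in the changes of the 6 genes was not tested.

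The mdx5cv muscles differed among themselves in these markers and in the 6 genes. Replicate 4 had the highest regenerating fiber sum (8502) and macrophage sum (8625) and the lowest fast fiber sum (694989). It also had the highest Sntb1, Sntb2 and Dtnb and the lowest Nos1, Dtna and Dmd of the 4 mdx5cv muscles, while Aqp4 was lowest in replicate 1. Without mdx5cv replicate 4, Sntb1, Nos1 and Aqp4 were still called, with log2 fold changes of 0.88, -0.57 and -1.57 (limma, adjusted p = 0.0264, 0.0119 and 9.92e-05). Sntb2 was not, at 0.31 (limma, adjusted p = 0.0719).

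The genes whose pattern over the 8 muscles was closest to each member were found by the mean absolute difference in log2 deviation from the WT mean, among 7641 genes that averaged 100 or more. Among the closest to Sntb1 were Fbn1 and Mrc1, at 0.20 and 0.22, and the closest to Aqp4 were Hspa1l, Fads6 and Kcnma1, at 0.17, 0.19 and 0.21. Nos1 was closest to Clip4, Npr3 and Acacb, at 0.09, 0.09 and 0.11. Sntb2 was closest to Rab11fip5, Man1a and Taok2, at 0.06, 0.06 and 0.07, Dtna to Epc1, Gpr107 and Zfp866, at 0.04, 0.04 and 0.05, and Dtnb to Polr1b, Gm37033 and Anks1, at 0.20, 0.21 and 0.21. Dtnb and Sntb1 are the members with the fewest reads. Likeness of pattern over the same 8 libraries is a description.

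**Figure D4:**
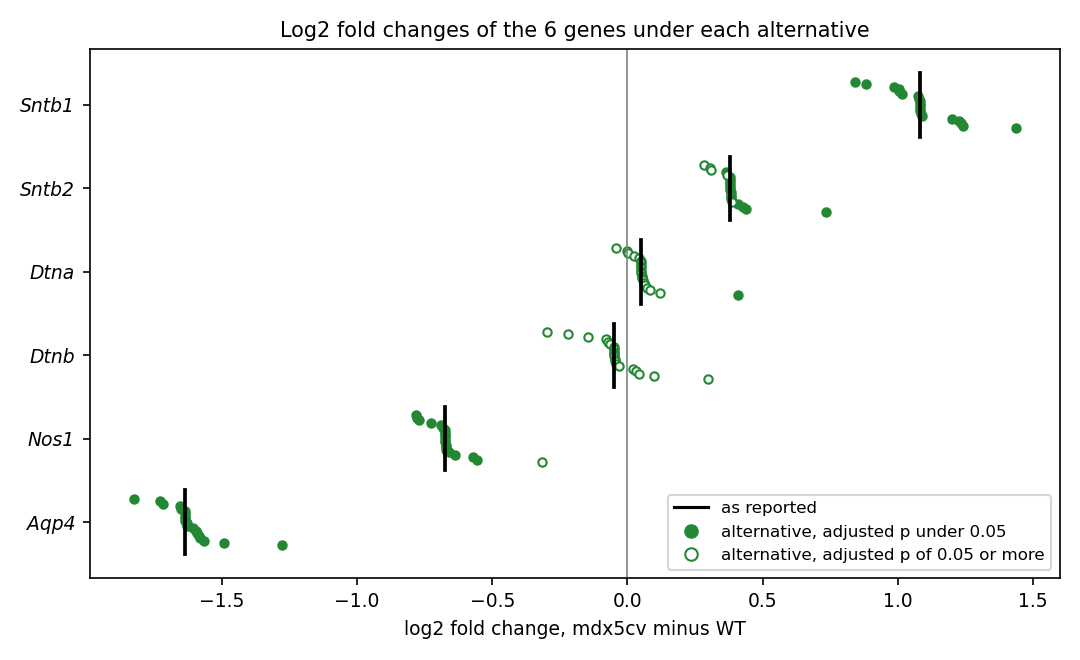
Log2 fold change of mdx5cv over WT (horizontal axis) of each of the 6 genes as reported (black line) and in 20 alternative fits (circles, filled where the adjusted p was under 0.05), spread vertically for legibility. Sntb1 and Aqp4 are filled in all 20, Nos1 in 19, Sntb2 in 15, Dtna in 1 and Dtnb in none.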

How the data were processed

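TA muscles from 4 WT and 4 mdx5cv mice were sequenced from total RNA with a reversely stranded kit, per the labels. The submitters' processing notes name FastQC, Trim Galore 0.6.4, STAR 2.6.0c, SAMtools 1.9, featureCounts, MultiQC 1.6, DESeq2 1.26.0, R 3.6.2 and mm10. The annotation and the use of strand in counting are not given in the sources used here. The deposited table holds a normalized signal: read counts per gene that the authors divided by a size factor of each library. Whole reads were recovered for 100% of values (tolerance 0.01).

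From the deposited values, log2(normalized count + 1) of genes with a mean of at least 10 was compared in limma 3.58.1 (lmFit, eBayes with trend, two-sided, Benjamini-Hochberg over all genes tested). No covariate was used, and edgeR 4.0.16 and DESeq2 1.42.0 were run on recovered reads as alternatives. Log2 ratios within a muscle were compared by exact permutation over 70 splits. Positions and exon lengths are those of GENCODE M21, which holds 55141 of the 55401 gene identifiers. Samples were grouped by their titles. The labels name separate samples without saying that each is 1 animal, so p-values measure the spread between these samples. Scripts were tested on simulated data.

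The 6 genes and all lists were chosen with earlier results of these data known. Of each pathway list, Dmd and up to 4 called genes with the largest absolute log2 fold change are named, and Nos2 as a paralog of Nos1, chosen after its value was seen. Utrn, Dag1 and the smooth muscle, slow fiber and denervation and junction markers were also named after their values were seen. For each member the 3 genes of most like pattern are named. Sequences and some genes of the lists are not reported here.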

Additional observations from a re-analysis of the deposited data

Results flagged for a closer look

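The 44 sets of 4 values examined included the log2 normalized counts of the 6 genes and of named pathway genes in each group. Of these sets, 1 held a value far from the other 3, where chance gives about 2.2. Gucy1a1, the guanylyl cyclase subunit, was at 8.13 in WT replicate 2 and at 7.67 to 7.72 in the other WT muscles. Its call did not rest on that library, since the log2 fold change was between -0.86 and -0.70 with each library left out in turn.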

How the results depend on the processing

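The calls of Sntb1 and Aqp4 held in all 20 alternatives, that of Nos1 in 19 and that of Sntb2 in 15. With each library scaled to the same total, the log2 fold change of Nos1 was -0.32 and not called, that of Dtna 0.41 and called, and that of Dtnb 0.30. In that fit 5444 genes were called higher and 820 lower, 2256 and 210 with the fold limit, and 6 core complex genes were called. Centring each library on its median gave 0.28 for Sntb2, which was not called, and -0.044 for Dtna. Genes called with the fold limit numbered 729 higher and 275 lower where every library had to reach 10, and 2202 higher with no filter. With each library left out in turn, Sntb2 ranged from 0.31 to 0.44, Dtna from -0.0027 to 0.12 (below 0 without mdx5cv replicate 1) and Dtnb from -0.30 to 0.10 (above 0 without WT replicate 2 or 4 or mdx5cv replicate 1 or 2, at 0.03, 0.10, 0.04 and 0.02). These fits called 3 or 4 of the 6 genes. Equal totals and centring rescale all genes of a library by construction. The 2 settings with another filter on low values change which genes are tested. For the other settings the cause was not tested. Whether the replicate numbers of the labels pair the samples was not settled. Same-numbered muscles had correlations of 0.05, 0.03, 0.07 and 0.15 in their deviations from the group means. Muscles with different numbers had correlations of -0.15 to 0.07, and not every muscle correlated best with its own number. With the replicate number as a block, 2880 genes were called higher and 2736 lower, and the same 4 of the 6 genes were called. Dtnb, at 18 to 59 reads a library, is the member with the fewest reads.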
